A study of Mus musculus with 32 samples.

Results

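The cadherin and protocadherin genes were taken as all genes whose current mouse symbol was Cdh followed by digits alone or started with Pcdh, with the vascular cadherin Cdh5 left out. The mouse gene table used to name the probes held 92 such genes, and 68 of them had a probe on the array (86 probes). Of these 68 genes, 45 reached a mean processed signal of 100 in one dye in at least 1 group of animals after hypoxia-ischemia (HI) and could be tested there, among 18633 genes or file names tested in all. The 23 genes that stayed under this minimum were Cdh1, Cdh3, Cdh16, Cdh17, Cdh19, Cdh23 and Cdh24, 2 of 7 alpha protocadherins (Pcdha11 and Pcdhac1), 9 of 22 beta protocadherins (Pcdhb1, Pcdhb2, Pcdhb4, Pcdhb5, Pcdhb8, Pcdhb9, Pcdhb11, Pcdhb13 and Pcdhb19) and 5 of 6 gamma protocadherins (Pcdhga1, Pcdhga5, Pcdhga10, Pcdhgb1 and Pcdhgc5). A gene had to be bright enough in a group to be tested there, so 33 genes were tested in all 8 HI groups and the number tested changed from group to group.

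Cadherins are calcium-dependent adhesion molecules of the cell surface. Classical cadherins of type I and type II bind the same or a related cadherin on the neighbouring cell and are tied to the actin cytoskeleton inside the cell through catenins. In the developing forebrain, N-cadherin (Cdh2) holds the neuroepithelium together, and type II cadherins mark particular nuclei, layers and synaptic partners. Protocadherins lack the catenin-binding tail: the delta protocadherins act in axon growth and synapse remodelling, whereas the clustered alpha, beta and gamma protocadherins are chosen in small sets by each neuron, through CTCF and cohesin, and let its branches recognise themselves.

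RNA was taken from NMRI mouse pups whose right common carotid artery was permanently ligated and which then breathed 8% oxygen for 40 min, at postnatal day 5 (P5) or P10, the day of birth being counted as day 1. The ipsilateral hemisphere without the olfactory bulb was collected 3, 6, 12 or 24 h later and pooled from 6 animals. Each of 24 HI arrays, 3 for each age and time point, compared an HI pool labelled with Cy5 with a pool of naive littermates of the same age and time labelled with Cy3. Naive pups were not operated, so the surgery and the anesthesia belong to the HI side of each ratio. A further 8 arrays carried naive pools of P2 and P15 brain, 4 pools of each age as the labels number them (the study's methods can be read as more). The dyes were never swapped on HI arrays, and whole tissue was measured, so that fewer cells of a type and less RNA per cell cannot be told apart.

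Ratios are given as log2 of HI over naive, 0 meaning no difference and 0.58 a 1.5-fold difference, and an induction or repression was called when limma gave an adjusted p under 0.05 over all probes tested in that group and the difference exceeded 1.5-fold. Between 57.9% and 69.5% of spots were well above background in the naive dye of P5 arrays and between 59.2% and 84.9% at P10, where the 12 h array of replicate 1 stood highest. The 4 arrays of a slide held the 4 time points of one age and one replicate number, so time and position on the slide cannot be told apart, nor can age and slide. The third P5 slide, which carried replicate 3, stood apart in the naive level of these genes. Of 54 member probes, 35 lay below all 8 other P5 naive pools on its 4 arrays and 3 lay above, against 26.8% below and 39.4% above for all probes. The HI ratios of that slide compared 2 pools on the same array, and calls lost without it are named with their values. Neuron, astrocyte and microglia markers were all above background in the tissue.

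In P5 brain, 1 of the 44 genes tested was induced and 9 were repressed at 1 time point or more. Over all genes tested these shares were 5.24% induced and 3.02% repressed, against 2.27% and 20.5% of the cadherin and protocadherin genes. In P10 brain, 6 of 39 were induced and 13 repressed, which was 15.4% and 33.3%, against 14.8% and 17.6% of all genes. The share induced was thus below or near that of all genes, and the share repressed was above it at both ages. Of the 13 repressed at P10, 2 (Pcdh9 and Pcdhb18) were carried by a single array, as described with their values. Without the third P5 slide, 1 gene was induced and 7 repressed at P5, and without the first P10 slide 6 were induced and 11 repressed at P10. With the background recomputed by normexp and the arrays scaled by loess, 1 was repressed at P5 and 6 at P10.

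By time point at P5, 1 gene was induced and 2 repressed of 41 at 3 h (2.24% and 0.532% of all genes), 1 and 4 of 41 at 6 h (2.69% and 1.19%), and 0 and 6 of 44 at 12 h (3.36% and 1.81%). At 24 h limma called none of 42 in either direction (1.64% and 0.424% of all genes). At an unadjusted p under 0.05, limma had 2 genes higher and 9 lower at 24 h, and the methods' t-test likewise had 2 higher and 10 lower. For the induced genes at 12 h, limma had 1 at an unadjusted p under 0.05 and the methods' t-test 2. By time point at P10, 2 were induced and 1 repressed of 33 at 3 h (3.95% and 1.56% of all genes), 6 and 10 of 36 at 6 h (7.54% and 6.7%), 2 and 4 of 38 at 12 h (6.06% and 4.26%) and 2 and 1 of 34 at 24 h (10.1% and 11.3%). The calls in P10 brain therefore lay mostly at 6 h, and at 24 h the member shares were below those of all genes. With 1 probe a gene, the median ratio over the members ran from -0.13 at 3 h through -0.24 (6 h) and -0.27 (12 h) to -0.13 (24 h) in P5 brain. In P10 brain it ran from 0.07 at 3 h through -0.19 (6 h) and -0.10 (12 h) to -0.12 (24 h), whereas the median of all probes tested lay between -0.02 and 0.

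**Figure D1:**
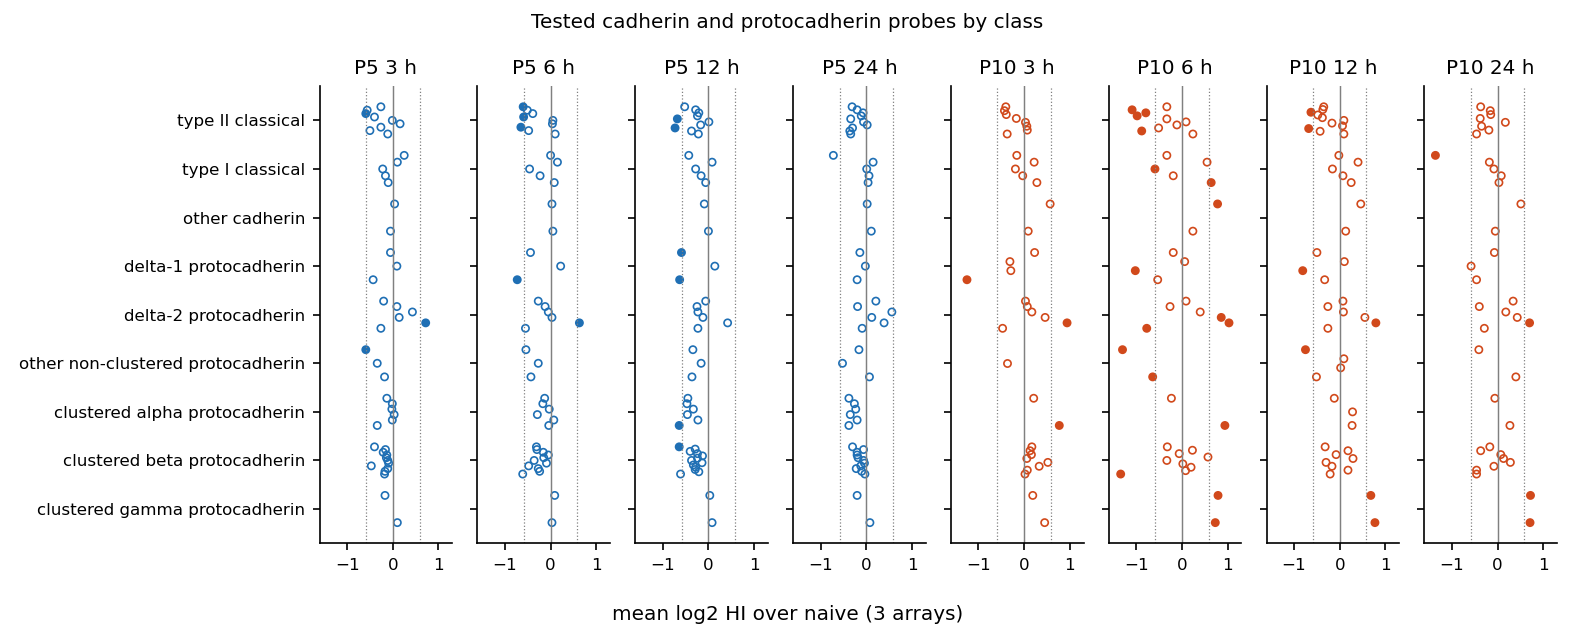
Mean log2 HI over naive (horizontal axis, 3 arrays) of each tested cadherin or protocadherin probe, by class (rows) and by age and time after HI (panels; blue P5, orange P10). Filled points were called and open points were not, and dotted lines mark 1.5-fold (0.58). The filled type II points all lie left of 0, and the filled points are most numerous at 6 h in P10 brain.

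By number of genes, the type II cadherins were the class with the most repressions, and none was induced. At P5, 4 of 9 tested were repressed (Cdh7, Cdh8, Cdh11 and Cdh12), against 3.02% of all genes. At P10, 5 of 10 were repressed (Cdh7, Cdh9, Cdh10, Cdh11 and Cdh12), against 17.6% of all genes. Repression was not particular to this class. Of the delta-1 protocadherins 2 of 3 were repressed at each age, counting the Pcdh9 value set by 1 array. At P10, 2 of 3 type I cadherins and 2 of 3 other non-clustered protocadherins were repressed. Differences between classes were not tested. In time order, the median ratio of the type II cadherins took the values -0.33, -0.49, -0.28 and -0.20 in P5 brain and the values -0.27, -0.51, -0.38 and -0.27 in P10 brain. These medians were below 0 also after the dye bias was subtracted and without the third P5 slide. Under normexp they stayed below 0 but were smaller, -0.27 at P5 6 h and -0.28 at P10 6 h, and all the type II calls named here were lost except those of Cdh7 (-0.60) and Cdh11 (-0.59) at P10 6 h. Cdh6, Cdh18, Cdh20 and Cdh22 were not called in any HI group.

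Cdh7 was repressed at 6 h at both ages. At P5 its processed signal was 252, 422 and 242 in the naive pools and 166, 277 and 160 in the HI pools, and the 3 ratios were -0.60, -0.61 and -0.60 (-0.60 ± 0.01, SD, n = 3 arrays, limma adjusted p = 0.00321). At P10 the signal was 311, 428 and 364 in naive pools and 141, 176 and 200 in HI pools, with ratios of -1.14, -1.29 and -0.86 (-1.09 ± 0.22, limma adjusted p = 3.28e-06). Every HI pool was below its naive partner, and at P10 the HI and naive signals did not overlap.

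Cdh9 and Cdh10, both described in neuronal circuits, were repressed in P10 brain. Cdh9 had ratios of -1.17, -0.68 and -0.79 at 6 h (-0.88 ± 0.26, limma adjusted p = 2.19e-06). Its mean at P5 lay between -0.50 and -0.36 over the 4 time points, on the same side of 0 but under 1.5-fold. Cdh10 had ratios of -0.90, -0.81 and -0.64 at 6 h (-0.79 ± 0.13, limma adjusted p = 1.79e-05). At 12 h Cdh10 had -0.75, -0.68 and -0.45 (-0.63 ± 0.16), a call that was lost without replicate 1 (-0.56) and with the dye bias subtracted (-0.58). All 3 arrays were below 0 in each of these groups.

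Cdh8, a cadherin of cortical and striatal circuits, was called repressed at P5 and not at P10 on its tested probe. Its ratios were -0.65, -0.58 and -0.54 at 6 h (-0.59 ± 0.05, limma adjusted p = 0.000161) and -0.79, -0.61 and -0.65 at 12 h (-0.68 ± 0.09, limma adjusted p = 3.22e-05). The 6 h call of Cdh8 rested on the fold threshold and was lost without replicate 1 (-0.56) and with the dye bias subtracted (-0.50). In P10 brain the means were -0.17, -0.33, -0.38 and -0.38, and the P10 minus P5 difference of this gene was not called at any time point. A dim Cdh8 probe (A_55_P1970616) lay under the signal minimum. With no minimum it was called lower at both ages, with -1.46 at P5 6 h and -1.22 at P10 6 h (limma adjusted p = 0.00481 and 0.00429). Its mean naive signals there were 46.7 and 30.5. With a filter on spots well above background it was called at P5 alone.

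Cdh12 was repressed at both ages. At P5 the ratios were -0.69, -0.71 and -0.54 at 6 h (-0.65 ± 0.09, limma adjusted p = 0.0028) and -0.77, -0.68 and -0.75 at 12 h (-0.73 ± 0.05, limma adjusted p = 0.000957). At P10 they were -0.98, -0.18 and -0.88 at 12 h (-0.68 ± 0.44), where replicate 2 was close to 0 and the call was lost without replicate 1 (-0.53) or replicate 3 (-0.58). The P5 arrays agreed closely and the P10 arrays did not.

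Cdh11, best known from mesenchymal cells and also made by neurons, had 2 probes that disagreed. The brighter probe gave -1.19, -1.18 and -0.57 at 6 h in P10 brain (-0.98 ± 0.36, limma adjusted p = 3.8e-05), and the dimmer probe gave a mean of 0.24, not called. At P5 the brighter probe was repressed at 3 h, with -0.45, -0.79 and -0.54 (-0.59 ± 0.18, limma adjusted p = 0.0137). This P5 call was lost without replicate 2 (-0.49), without replicate 3 (-0.62, limma adjusted p = 0.0692) and without the third slide (-0.62, limma adjusted p = 0.122). Cdh18 was near the thresholds at P5 12 h, with -0.61, -0.57 and -0.38 (-0.52 ± 0.13, limma adjusted p = 0.0581).

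**Figure D2:**
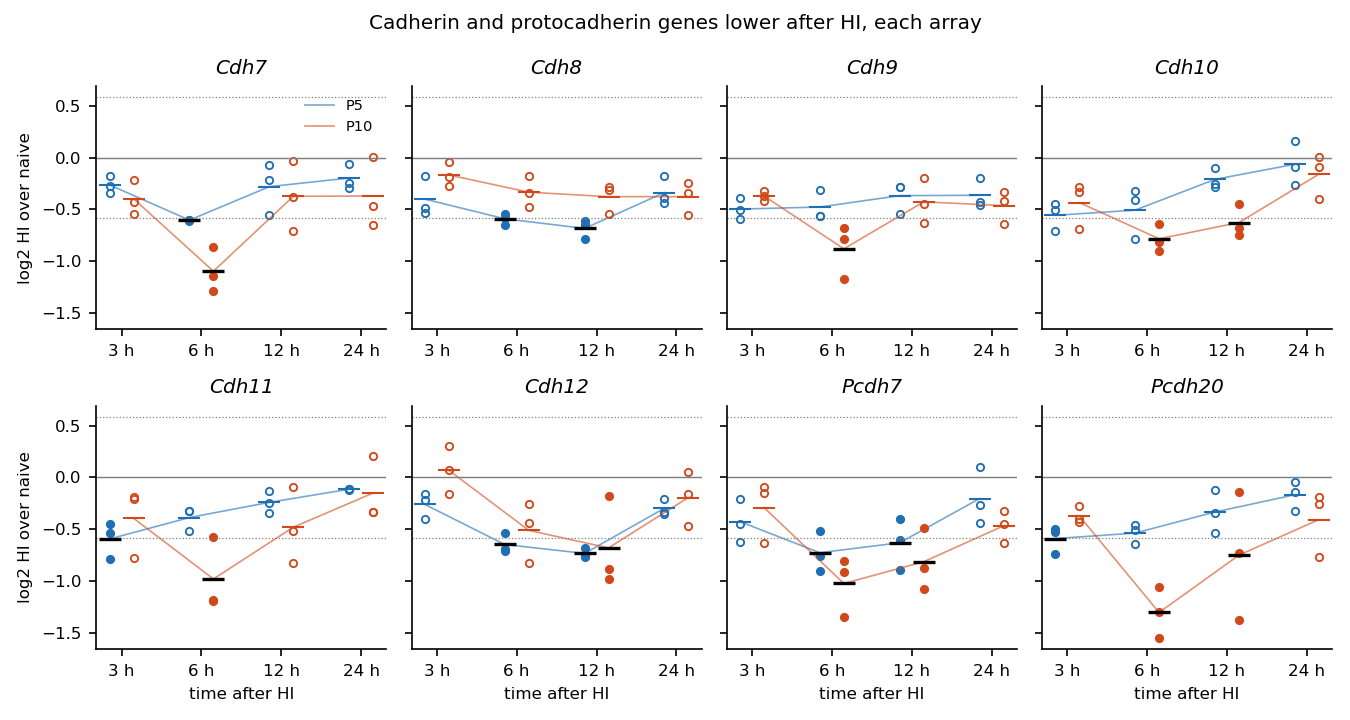
Log2 HI over naive on each array (vertical axis) against time after HI for 6 type II cadherins and for Pcdh7 and Pcdh20, with P5 in blue and P10 in orange. Filled points belong to a group that was called, dashes are means of 3 arrays (black where called) and dotted lines mark 1.5-fold (0.58). The P10 points of Cdh7, Pcdh7 and Pcdh20 were lowest at 6 h, with means of -1.09, -1.02 and -1.30.

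Outside the type II class the most repeated repression was that of the delta-1 protocadherin Pcdh7. At P5 it had -0.76, -0.52 and -0.90 at 6 h (-0.73 ± 0.19, limma adjusted p = 0.00203) and -0.60, -0.40 and -0.89 at 12 h (-0.63 ± 0.25, limma adjusted p = 0.0046). At P10 it had -1.35, -0.91 and -0.81 at 6 h (-1.02 ± 0.29, limma adjusted p = 1.89e-05) and -1.08, -0.49 and -0.87 at 12 h (-0.81 ± 0.30, limma adjusted p = 0.000272). All 12 ratios of this Pcdh7 probe in these groups were below 0. The P5 12 h call was lost without replicate 3 (-0.50, limma adjusted p = 0.0784), without the third slide (-0.50) and with the dye bias subtracted (-0.56). A dim Pcdh7 probe (A_51_P260740), under the minimum, was called higher at P10 3 h with a filter on spots well above background (1.49, limma adjusted p = 0.0462). Its mean naive signal there was 8.96.

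Pcdh20, a protocadherin outside the clusters, had the lowest mean among the calls that did not rest on 1 array, apart from Cdh15. At 6 h in P10 brain its signal was 959, 944 and 1220 in naive pools and 326, 383 and 588 in HI pools, and the ratios were -1.55, -1.30 and -1.06 (-1.30 ± 0.25, limma adjusted p = 5.81e-06). At 12 h the arrays spread from -0.14 to -1.38 (-0.75 ± 0.62), and the call was lost without replicate 3 (-0.44). At P5 Pcdh20 was called at 3 h with -0.50, -0.53 and -0.74 (-0.59 ± 0.13, limma adjusted p = 0.0238), and leaving out any one of these arrays lost the call (limma adjusted p between 0.0913 and 0.182), as did leaving out the third slide (-0.51).

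Pcdh18, a delta-2 protocadherin, had -0.86, -0.90 and -0.55 at 6 h in P10 brain (-0.77 ± 0.19, limma adjusted p = 6.02e-05). Pcdh15, known from the tip links of hair cells, had -0.86, -0.77 and -0.28 (-0.64 ± 0.31, limma adjusted p = 0.0105) in the same group, at a mean naive signal of 101, just over the minimum. The Pcdh15 call was lost without replicate 1 (-0.53). Dimmer Pcdh15 probes, under the minimum, disagreed with it when a filter on spots well above background was used instead. Probe A_55_P2176181 was called higher at P10 6 h (0.73, limma adjusted p = 0.0441) and lower at P10 24 h (-1.0). Probe A_55_P2176175 was called higher at P10 24 h (1.52). Pcdh9, a delta-1 protocadherin, had -0.70, -0.49 and -0.59 at P5 12 h (-0.59 ± 0.11, limma adjusted p = 0.000866), and this was lost without replicate 1 (-0.54). Another Pcdh9 probe was called at P10 3 h with -0.07, -0.41 and -3.27, a value that replicate 3 alone set (-0.24 and limma adjusted p = 0.266 without it).

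Cdh15, M-cadherin, is best known from muscle satellite cells and cerebellum, and it was the only member repressed at 24 h. At P10 the ratios were -0.91, -1.43 and -1.73 (-1.36 ± 0.42, limma adjusted p = 0.000546), with a mean signal of 534 in naive and 217 in HI pools. At P5 24 h it had -0.73, -0.36 and -1.08 (-0.72 ± 0.36, limma adjusted p = 0.115), and at P5 3 h its arrays went from 1.22 to -0.72. The type I gene Cdh2, N-cadherin, had 2 probes: the dimmer gave -0.72, -0.88 and -0.17 at 6 h in P10 brain (-0.59 ± 0.37, limma adjusted p = 0.00766) and the brighter a mean of -0.19, not called. The Cdh2 call was lost without replicate 1 (-0.53) or replicate 2 (-0.45).

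Among the clustered protocadherins 2 genes were repressed at P5, both at 12 h (1.81% of all genes), and 1 at P10. Of 13 beta genes tested, Pcdhb3 was repressed at P5 12 h with -0.49, -0.68 and -0.77 (-0.64 ± 0.14, limma adjusted p = 0.0015), lost without replicate 3 (-0.58), without the third slide (-0.58) and with the dye bias subtracted (-0.54). Pcdhb18 was called at P10 6 h on -0.24, -0.18 and -3.59, and without replicate 3 it fell under the signal minimum. The alpha-cluster gene Pcdhac2 was called at P5 12 h on its dimmer probe, with -0.53, -0.55 and -0.85 (-0.64 ± 0.18, limma adjusted p = 0.0165), and the brighter probe had a mean of -0.47. The Pcdhac2 call was lost without any one of its 3 arrays (limma adjusted p between 0.0545 and 0.142), without the third slide (-0.54), and with the dye bias subtracted (-0.40). At P10 the same Pcdhac2 probe lay under the signal minimum. With no minimum it was called higher at 3 h (0.76, limma adjusted p = 0.00993) and at 6 h (1.03, limma adjusted p = 0.00046). Its mean naive signal was 24.5 in both groups.

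Of the beta genes, 1 passed the test at P5, and the mean ratios of the others were below 0 but not called. Among these, Pcdhb18 had -0.61 at both 6 h and 12 h, beyond 1.5-fold. In time order the class median took the values -0.16, -0.27, -0.29 and -0.12, and 11 of 11, 11 of 11, 13 of 13 and 11 of 11 genes tested lay below 0, against 54.8%, 53.4%, 52.7% and 52% of all probes tested. At 3 h the median of replicate 3 was 0.04, on the other side of 0. Under normexp these counts were 10 of 11, 11 of 11, 13 of 13 and 7 of 11. In P10 brain the beta median was 0.14 at 3 h, with 0 of 8 genes below 0, then 0.02, -0.12 and -0.13, and the 6 h value turned to -0.04 after the dye bias was subtracted. The 5 alpha genes tested had a median of -0.45 at P5 12 h, all 5 below 0. The exons shared by all genes of the alpha or gamma cluster and the likeness of beta genes to each other mean that a probe can bind transcripts of several of them. Probe sequences were not analysed here, so values of clustered genes may not belong to 1 gene.

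The inductions were fewer and lay mostly in P10 brain. Pcdh10, a delta-2 protocadherin with a role in activity-dependent removal of synapses, was the one gene induced at both ages, in 6 of 8 groups, on 1 of its 2 probes (A_55_P2132596). At P5 this probe had 0.60, 0.59 and 0.96 at 3 h (0.72 ± 0.21, limma adjusted p = 0.000164) and 0.42, 0.62 and 0.84 at 6 h (0.63 ± 0.21, limma adjusted p = 0.000545), then means of 0.42 and 0.39. The P5 6 h call was lost without replicate 3 (0.52), the array of the third slide.

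In P10 brain the same Pcdh10 probe had 0.73, 1.03 and 1.06 at 3 h (0.94 ± 0.18, limma adjusted p = 6.64e-06) and 0.93, 0.98 and 1.17 at 6 h (1.03 ± 0.13, limma adjusted p = 1.06e-06). It was still called at 12 h, with 0.52, 0.91 and 0.94 (0.79 ± 0.23, limma adjusted p = 2.46e-05), and at 24 h, with 0.79, 0.62 and 0.70 (0.70 ± 0.09, limma adjusted p = 4.8e-05). At 6 h the naive signals were 121, 178 and 184 and the HI signals 230, 352 and 415, so the P10 groups did not overlap. All 24 ratios of this probe were above 0. The brighter Pcdh10 probe (A_51_P209150) was not called in any group. In time order its means were -0.20, -0.27, -0.06 and 0.21 in P5 brain, then 0.03, 0.09, 0.07 and 0.34 in P10 brain. The induction of Pcdh10 was therefore seen by 1 probe of 2, and which transcript each probe binds was not analysed here.

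Pcdha8, a clustered alpha protocadherin, was induced in P10 brain. Its ratios were 0.64, 0.64 and 1.03 at 3 h (0.77 ± 0.22) and 0.91, 1.10 and 0.81 at 6 h (0.94 ± 0.14). At 6 h the naive signals were 170, 245 and 187 and the HI signals 319, 523 and 328, with no overlap, whereas at P5 6 h naive pools had 1030, 2200 and 434 and HI pools 1190, 1830 and 519, which overlapped. Pcdh19, the X-linked delta-2 protocadherin known from an epilepsy of girls, had 0.82, 0.91 and 0.87 at 6 h in P10 brain (0.86 ± 0.04, limma adjusted p = 5.53e-05) and means of 0.46, 0.55 and 0.43 at 3, 12 and 24 h.

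Cdh13, T-cadherin, is held in the membrane by a lipid anchor and has no cytoplasmic tail. At 6 h in P10 brain it had 0.49, 1.06 and 0.81 (0.78 ± 0.29, limma adjusted p = 6.9e-06), with naive signals of 980, 1210 and 1270 and HI signals of 1370, 2530 and 2220. Every HI pool of Cdh13 was above every naive pool, and the means at 3, 12 and 24 h were 0.57, 0.46 and 0.51, not called. The type I gene Cdh4, R-cadherin, had 0.78, 0.61 and 0.52 in the same group (0.64 ± 0.13, limma adjusted p = 4.22e-06), lost without replicate 1 (0.57) and with the dye bias subtracted (0.58). Its other probe had a mean of 0.55 (limma adjusted p = 0.00216), under 1.5-fold.

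Pcdhga9 was the 1 gamma protocadherin bright enough to test, and both of its probes were called at 6, 12 and 24 h in P10 brain. The brighter probe had 0.80, 0.90 and 0.47 at 6 h (0.73 ± 0.22, limma adjusted p = 0.000619), 0.81, 0.58 and 0.91 at 12 h (0.77 ± 0.17, limma adjusted p = 0.000585) and 1.23, 0.82 and 0.07 at 24 h (0.71 ± 0.59, limma adjusted p = 0.000805). The dimmer probe had means of 0.79, 0.68 and 0.72. Replicate 3 at 24 h was close to 0 on the brighter probe, and without replicate 1 the 24 h means fell to 0.45 and 0.44 and neither probe was called. The dimmer probe also lost its calls at 6 h without replicate 1 (0.52) and at 12 h without replicate 3 (0.46).

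Under normexp, calls kept outside the type II class were those of Pcdh20 (-1.0 at 6 h and -0.60 at 12 h) and Cdh15 (-0.79) among the repressions in P10 brain, beside the Pcdh9 and Pcdhb18 values set by 1 array. Among the inductions, those kept were Pcdh10 at P5 3 h (0.73), P10 6 h (0.66) and P10 12 h (0.60), Pcdh19 (0.68), Cdh13 (0.76) and the brighter Pcdhga9 probe (0.76, 0.78 and 0.67). The others were lost, among them all 4 calls of Pcdh7 (-0.51 to -0.31), Pcdh18 (-0.43), Cdh4 (0.29) and both of Pcdha8 (0.39 and 0.49). Tested in each age and time group alone, Cdh15 at P10 24 h (limma adjusted p = 0.0656) and the P10 12 and 24 h calls of Pcdh10 and Pcdhga9 (limma adjusted p between 0.0549 and 0.117) were lost too, as were those of Pcdh7, Pcdh20, Cdh10 and Cdh12 at P10 12 h (limma adjusted p between 0.0583 and 0.129).

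**Figure D3:**
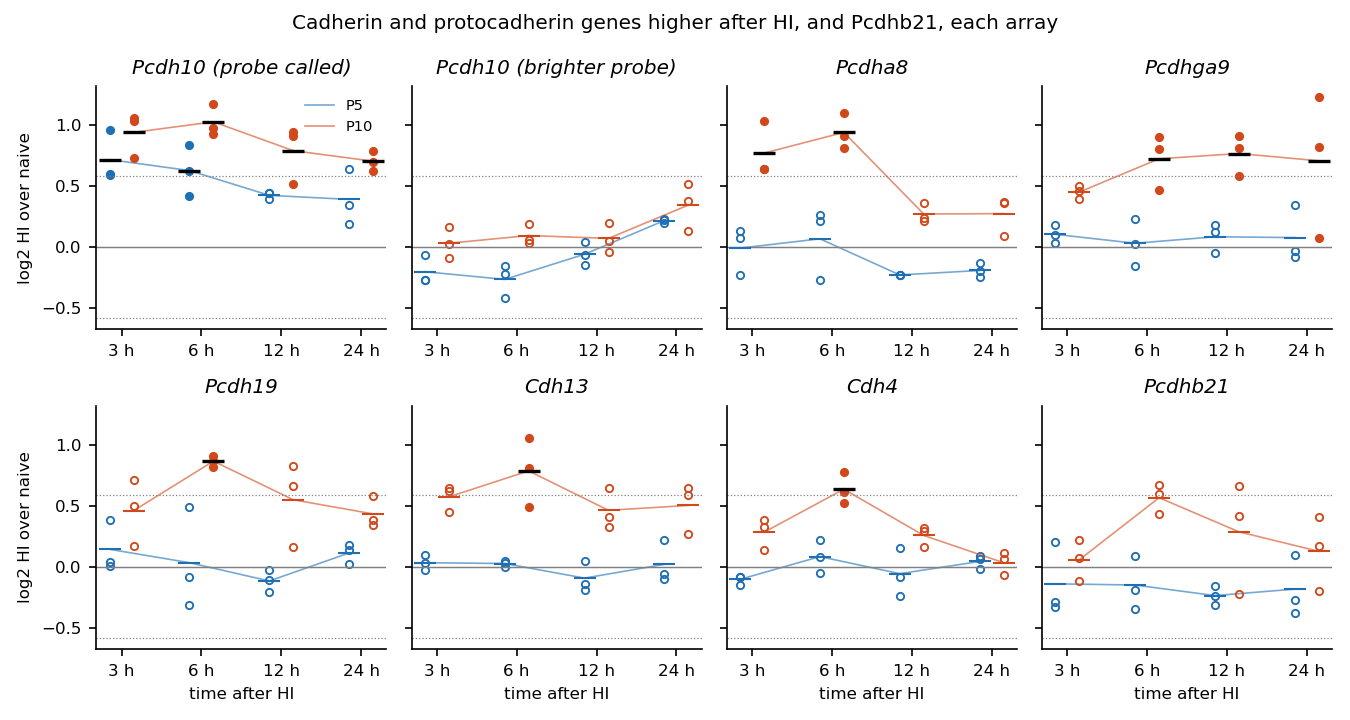
Log2 HI over naive on each array (vertical axis) against time after HI for the 6 induced genes, both Pcdh10 probes, and Pcdhb21, with P5 in blue and P10 in orange. Filled points belong to a called group, dashes are means of 3 arrays and dotted lines mark 1.5-fold (0.58). The called Pcdh10 probe lies above 0 on all 24 arrays and its brighter probe does not.

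The number of members called induced at P10 depended on the signal minimum. Without it, 18 genes were called higher at P10, 12 more than with it, and with a filter on spots well above background the count was 17. Dropping the minimum also let in 16152 to 17315 probes over all genes in each P10 group. The share of all genes then called higher was not counted, so the 18 are not read as a trait of the members. The added genes were dim: Pcdhb2 reached 1.64 and Pcdhgb1 2.45, at mean naive signals of 6.36 and 7.9. Over member probes under the minimum, the median P10 ratio was 0.19, 0.25, -0.03 and 0.25 at 3, 6, 12 and 24 h (39 to 44 probes), against -0.01, 0.04, 0 and -0.04 for all probes under it.

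Promoter sequences were matched by symbol in RefSeq (GRCm38.p6): 22 of the members outside the 3 clusters had a window, and 13 of these 22 were among the genes called after HI. The 4 windows below are the 250 bases before the annotated start of the induced Pcdh10 and of Cdh8, Cdh15 and Pcdh20, which were repressed at P5, at P10 and at both ages. They were read on both strands for 2 short strings. These were ACGTG, a form of the hypoxia response element core, and TGACG, the cAMP response element core (CGTCA on the other strand). The GCGTG form of the hypoxia response element core was not searched, so a window without ACGTG may still hold it. Capitals mark a match.

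Pcdh10 (chr3:45378148-45378397, plus strand): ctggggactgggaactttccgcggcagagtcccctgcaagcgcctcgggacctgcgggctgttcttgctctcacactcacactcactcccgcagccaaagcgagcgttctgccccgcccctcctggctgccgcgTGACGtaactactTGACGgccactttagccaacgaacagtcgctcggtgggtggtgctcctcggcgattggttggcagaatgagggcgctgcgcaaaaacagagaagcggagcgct
Cdh8 (chr8:99416472-99416721, minus strand): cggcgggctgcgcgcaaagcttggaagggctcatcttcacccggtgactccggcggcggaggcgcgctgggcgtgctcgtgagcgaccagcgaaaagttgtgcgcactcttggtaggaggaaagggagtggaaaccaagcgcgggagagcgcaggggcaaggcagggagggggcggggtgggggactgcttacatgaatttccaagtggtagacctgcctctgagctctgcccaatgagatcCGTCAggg
Cdh15 (chr8:122848124-122848373, plus strand): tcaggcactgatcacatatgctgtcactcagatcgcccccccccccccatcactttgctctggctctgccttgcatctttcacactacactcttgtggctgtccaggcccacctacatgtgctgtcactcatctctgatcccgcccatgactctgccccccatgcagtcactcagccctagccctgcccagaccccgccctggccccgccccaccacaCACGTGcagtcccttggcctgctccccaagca
Pcdh20 (chr14:88471397-88471646, minus strand): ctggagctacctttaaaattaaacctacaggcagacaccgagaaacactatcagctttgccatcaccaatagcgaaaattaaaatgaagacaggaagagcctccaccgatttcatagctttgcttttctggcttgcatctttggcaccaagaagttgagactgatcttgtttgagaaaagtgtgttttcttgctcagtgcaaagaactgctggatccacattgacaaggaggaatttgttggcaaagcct

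The Pcdh10 window held TGACG 2 times and the Cdh8 window 1 time. The Cdh15 window held 1 palindrome, CACGTG, in which ACGTG reads on both strands, and the Pcdh20 window held neither string. Among the other called genes, ACGTG was found for Cdh7, at 1 of its 3 starts, and TGACG for Pcdh9. Of 32851 mouse promoter windows of this length, 16.6% held ACGTG and 17.8% held TGACG, so that such matches are common. The windows differed in base composition: G and C made up 63.2% for Pcdh10, 64.4% for Cdh8, 62% for Cdh15 and 42.4% for Pcdh20.

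Several of the genes called after HI are neighbours in the genome. Cdh6, Cdh9, Cdh10 and Cdh12 follow each other on chromosome 15 with no other coding gene between them, and Cdh9, Cdh10 and Cdh12 were repressed while Cdh6 was not called. Cdh18, with 1 other coding gene between it and Cdh12, was not called either. Whether called members are neighbours more often than members not called was not tested. Cdh8 and Cdh11 are adjacent on chromosome 8, and Pcdh20 and Pcdh9 on chromosome 14. On chromosome 3, 1 other coding gene lies between Pcdh10, which was induced, and Pcdh18, which was repressed.

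The P10 minus P5 difference of the HI ratio was tested in the same fit, and 6 of 38 genes (15.8%) differed at 1 time point or more, against 9.87% of all genes. At 6 h 5 were higher and 1 lower at P10 of 35 tested (3.25% and 2.49% of all genes). At 3 h 1 of 33 was higher (0.0805%), at 12 h 1 of 37 (1.22%) and at 24 h 1 of 34 (4.17%). None was lower at 3, 12 and 24 h (0.0659%, 0.502% and 0.91% of all genes), where limma had 1, 1 and 2 lower at an unadjusted p under 0.05. The methods' t-test was not made for this difference.

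The differences that were kept whichever array was left out were those of Pcdha8 and Cdh13 at 6 h. Pcdha8 had a mean of 0.07 at P5 and 0.94 at P10, a difference of 0.87 (limma adjusted p = 0.00268). Cdh13 had 0.03 at P5 and 0.78 at P10, a difference of 0.76 (limma adjusted p = 0.00343). Both genes were thus induced at P10 alone, and the difference itself passed the test.

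Pcdh19 had 0.03 at P5 and 0.86 at P10 at 6 h, a difference of 0.83 (limma adjusted p = 0.00859) that was lost without P5 replicate 2 (0.66, limma adjusted p = 0.0556). Pcdhb21 had -0.15 and 0.57 (0.72, limma adjusted p = 0.0287), lost without replicate 1 or 2 of either age at 6 h (0.62 to 0.70). The brighter Pcdhga9 probe had 0.03 and 0.73 (0.69, limma adjusted p = 0.032), lost without the same 4 arrays (0.60 to 0.69). Pcdh20 was the gene that was lower at P10, with -0.54 and -1.30 (-0.77, limma adjusted p = 0.0296), lost without any P5 array or P10 replicate 1 or 2 at 6 h (-0.82 to -0.64). Without the third P5 slide, Pcdh20 (-0.75) and Pcdhga9 (0.79, limma adjusted p = 0.0547) were lost at 6 h.

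Of the 9 type II cadherins tested for this difference, limma called none, 6 had an unadjusted p under 0.05 and 1 of them also passed 1.5-fold. At 6 h the difference was -0.49 for Cdh7 (limma adjusted p = 0.0699), -0.40 for Cdh9 (limma adjusted p = 0.0567) and -0.59 for Cdh11 (limma adjusted p = 0.0614). Repression at a single age was therefore not shown to be a difference between ages for any type II gene.

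**Figure D4:**
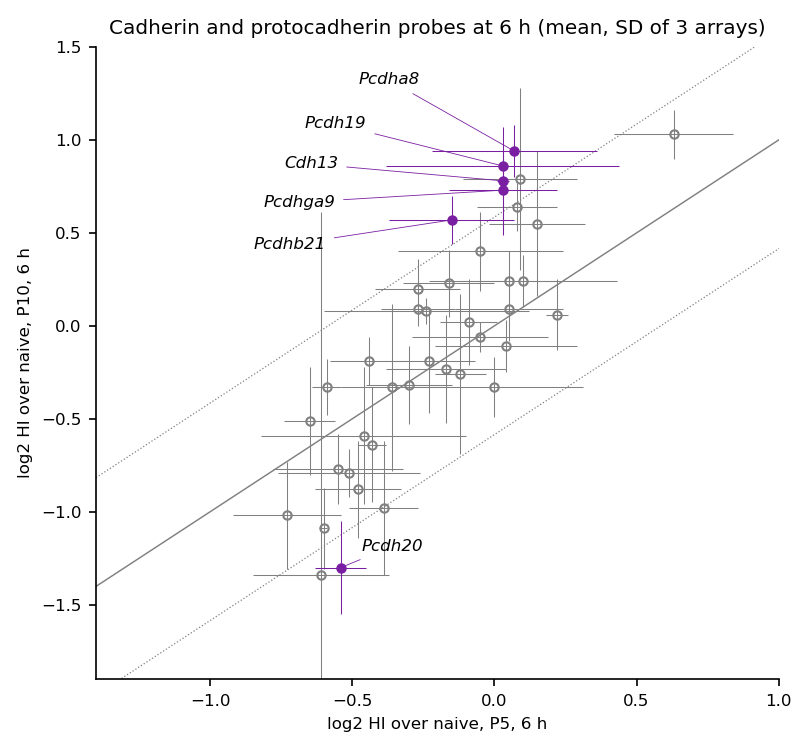
Mean log2 HI over naive at 6 h in P10 brain (vertical axis) against P5 brain (horizontal axis) for each member probe tested at both ages. Bars are the SD of 3 arrays (1 bar, of Pcdhb18, runs beyond the axis), the line marks equality and dotted lines a 1.5-fold difference. The 6 probes in purple passed the test of the difference: 5 lie above the line and Pcdh20 below it.

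Among the partners of these proteins, the catenin and junction list had 12 genes, 9 of which were tested. limma called none lower in any HI group, 2 higher at P5 (Vcl and Ctnna1) and 4 at P10, against 5.24% and 14.8% of all genes. Vcl, vinculin, which links catenins to actin, was induced at P5 3 h with 0.91, 0.83 and 0.98 (0.91 ± 0.08, limma adjusted p = 0.000354), at P5 6 h (0.63 ± 0.18), at P10 6 h with 0.85, 1.11 and 1.09 (1.02 ± 0.14) and at P10 24 h (0.87 ± 0.45). Ctnna1, alpha-E-catenin, was induced at P5 12 h (0.67 ± 0.16) and at P10 12 h (0.86 ± 0.29) and 24 h, with 2.03, 1.26 and 0.69 (1.33 ± 0.67). The p120 catenin gene Ctnnd1 was induced at P10 24 h (0.94 ± 0.20), and Nectin2 at P10 6 h (0.65 ± 0.41). Of 9 tested genes for the proteases and kinases that process cadherins or signal from them, limma called none in any HI group, though all 9 had an unadjusted p under 0.05 in some group, and the methods' t-test had 7.

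Of the regulators of clustered protocadherin choice, Smc3, a cohesin subunit, was repressed at P10 3 h (-0.60 ± 0.26), and Wapl, which releases cohesin, and Wiz were induced at P10 24 h (0.73 ± 0.42 and 0.82 ± 0.18). Of the 5 neuron markers, Tubb3 was lower at P5 6 h (-0.62), 12 h (-1.01) and 24 h (-0.91), and Syt1 at P5 12 h (-0.72). At P10 Rbfox3 was higher at 3 h (0.67) and 6 h (0.85), Snap25 was higher at 6 h (0.77), and Tubb3 was lower at 12 h (-0.61). The summed signal of the 5 ran from 93200 to 129000 in naive and from 60500 to 87500 in HI pools at P5 12 h, and from 57600 to 93200 in naive and 75400 to 134000 in HI pools at P10 6 h. Most single neuron markers were not called: 0, 1, 2 and 1 of 5 were lower at P5 3, 6, 12 and 24 h, and at P10 6 h 2 of 5 were higher.

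Markers of other cell types moved too. At P10 6 h 4 of 5 astrocyte markers were higher, their sum going from 5170 to 7590 in naive and from 9750 to 11400 in HI pools, and 2 of 4 microglia markers were lower. Both tested neutrophil markers were higher at P5 6 and 12 h and at P10 6 h, and all 3 erythroid markers at P5 6 and 12 h. None of the 5 meninges and fibroblast markers was called in these 3 groups. The part of these cell types in the member ratios was not tested.

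In the naive brain, 47 genes were bright enough at 1 age or more to follow from P2 to P15, as log2 of the Cy3 signal minus the 75th percentile of the array. A change was called at a limma adjusted p under 0.001 and 2-fold. From P5 to P10, 19 of the 47 genes fell and 1 rose, that is 40.4% and 2.13%, against 18.9% and 29.2% of all genes. The median member change was -0.86 and that of all probes 0.15. From P10 to P15, 5 rose and 3 fell (13.4% and 22% of all genes), and from P2 to P15, 0 rose and 12 fell (11.2% and 10.2%). From P2 to P5 limma called none (7.69% rose and 1.19% fell over all genes), although 7 were higher and 11 lower at an unadjusted p under 0.05, and 6 and 10 by the methods' test. For the P2 to P15 rises limma had 5 at an unadjusted p under 0.05 and the methods' test 6. The naive P10 pools are also the denominators of the P10 HI ratios, so the 2 kinds of value are given side by side and not related to each other.

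The P5 to P10 decline depended on the scaling in size, not in direction. With quantile normalization 11 of the genes fell and none rose, against 2242 and 2264 of all 17833 genes (3366 and 5207 in the main fit). The median of all probes moved from 0.15 to -0.04 while that of the members was -0.61. With the slide as a random block, 10 fell and none rose (2467 and 3466 of all genes). Without the third P5 slide, on which most member levels were low, 25 fell and 2 rose (4137 and 6287 of all genes), and each called fall was larger. From P2 to P15, 5 members fell and none rose with quantile normalization (997 and 1068 of all genes, against 1814 and 1993 in the main fit). With the slide as a random block 18 fell and 1 rose over that interval (2324 and 2725 of all genes).

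By class, with 18.9% of all genes falling, the counts were as follows, and differences between classes were not tested. All 6 alpha protocadherins that could be followed fell (median -1.96), as did 4 of 15 beta protocadherins (median -0.89), 3 of 5 delta-2 protocadherins (median -1.43), 2 of 3 type I cadherins (median -1.44) and the 1 gamma protocadherin. Under quantile normalization the falls of Pcdha4 (-0.79), Pcdha9 (-0.79) and Pcdha11 (-0.63) were no longer called. With the slide as a random block those of Pcdha4, Pcdha9, Pcdha12 and Pcdh17 were lost. The falls of Pcdhb13, Pcdhb15 and Pcdhb22 were lost under both settings, and that of Pcdhb21 was kept. None of 9 type II cadherins fell or rose from P5 to P10, and their median change was 0.04.

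Cdh4 had a measured fall of 3.37 between P5 and P10. Its level on the probe A_55_P2150831 was 2.00 to 2.56 in P2 pools (median 2.23), -0.50 to 2.53 in P5 pools (median 2.16), -2.34 to -1.55 in P10 pools (median -1.94) and -0.88 to 0.18 in P15 pools (median -0.37). The P5 range was wide because the third slide had a mean of -0.11, against 2.15 and 2.40 on the others. The change had a limma adjusted p of 4.85e-11 with that slide and was -4.16 without it, and no P5 pool overlapped the P10 pools in either case. Over P2 to P15 Cdh4 fell by 2.62 on this probe, a call lost without P15 replicate 3 (-2.45) or 4 (-2.44), and the P15 pools lay between P10 and P2. The other Cdh4 probe (A_52_P402897) changed by -2.12 from P5 to P10 and by -2.58 from P2 to P15. Both of its calls were kept in all 42 alternative settings.

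Pcdh19 had a median level of 2.90 at P2, 2.75 at P5, 0.07 at P10 and 1.10 at P15. Its P5 to P10 change was -2.27 (limma adjusted p = 9.98e-11), and -2.78 without the third slide. The called Pcdh10 probe had medians of 0.80, 0.61, -1.66 and 0.04, with a P5 to P10 change of -1.91 (-2.48 without the third slide) and a P10 to P15 rise of 1.66. The brighter Pcdh10 probe fell by 1.43 and rose by 1.09 over the same intervals. With the slide as a random block the rises of both probes were lost (limma adjusted p = 0.00117 and 0.00257), and that of the brighter probe also under quantile normalization (0.93). Both Pcdh10 probes thus moved alike with age, in contrast to their HI ratios.

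Cdh2 fell from P5 to P10 on both probes, by 1.71 and 1.44 (-2.10 and -1.75 without the third slide), and Cdh13 by 1.83 (limma adjusted p = 9.38e-13, and -2.13 without the third slide). Pcdha8 had a median level of 0.68 at P2, 0.92 at P5, -1.20 at P10 and -1.01 at P15, with a P5 to P10 change of -1.91 (-2.24 without the third slide). Pcdha11 was not well above background in any of the P10 naive pools, so its level there has only an upper bound. Pcdhga9 fell by 1.69 on its brighter probe (-2.11 without the third slide) and rose again by 1.45 to P15. Pcdhb22 fell by 2.32 (-2.76 without the third slide) and rose by 1.58, but both Pcdhb22 calls were lost with the slide as a random block (limma adjusted p = 0.00356 and 0.0893) and under quantile normalization (-0.85 and 0.63), and the rise also without P15 replicate 1, 2 or 4 (1.48 to 1.61).

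A few genes went the other way. The type II gene Cdh22 was at a median of 0.68 at P10 and 1.84 at P15, a rise of 1.20 (limma adjusted p = 1.18e-07) with no overlap between its pools. A Pcdh9 probe rose by 1.24 from P5 to P10 and fell by 1.91 to P15. This Pcdh9 rise came to 0.99 without replicate 3 at P10 3 h and was then not called, and under quantile normalization both Pcdh9 changes were lost (0.25 and -0.35). The rise of Cdh22 was 0.98 under quantile normalization, just under 2-fold. Cdh6 (-1.04) and Pcdhb12 (-1.10) fell from P10 to P15, but both calls were lost with the slide as a random block (limma adjusted p = 0.00162 and 0.00902) and under quantile normalization (-0.56 and -0.26). The Cdh6 fall was also lost without the first P10 slide (-0.79) or without replicate 1 at P10 3, 6 or 12 h or at P15 (-1.0 to -0.97), and that of Pcdhb12 without P15 replicate 4 (-0.97).

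Of the type II genes repressed after HI, none had a called change between ages in naive brain, but their courses were not all level. Cdh9 rose by 0.98 from P2 to P5 (limma adjusted p = 5.66e-07) and Cdh8 fell by 0.91 from P10 to P15 (limma adjusted p = 1.2e-06), both just under 2-fold. Cdh7 had medians of -1.19, -1.10, -0.60 and -0.71 at P2, P5, P10 and P15, and Cdh12 of -1.10, -0.80, -0.73 and -0.68. The third P5 slide was close to the others for both, with slide means of -1.06, -1.19 and -1.06 for Cdh7 and -0.68, -0.79 and -0.84 for Cdh12.

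**Figure D5:**
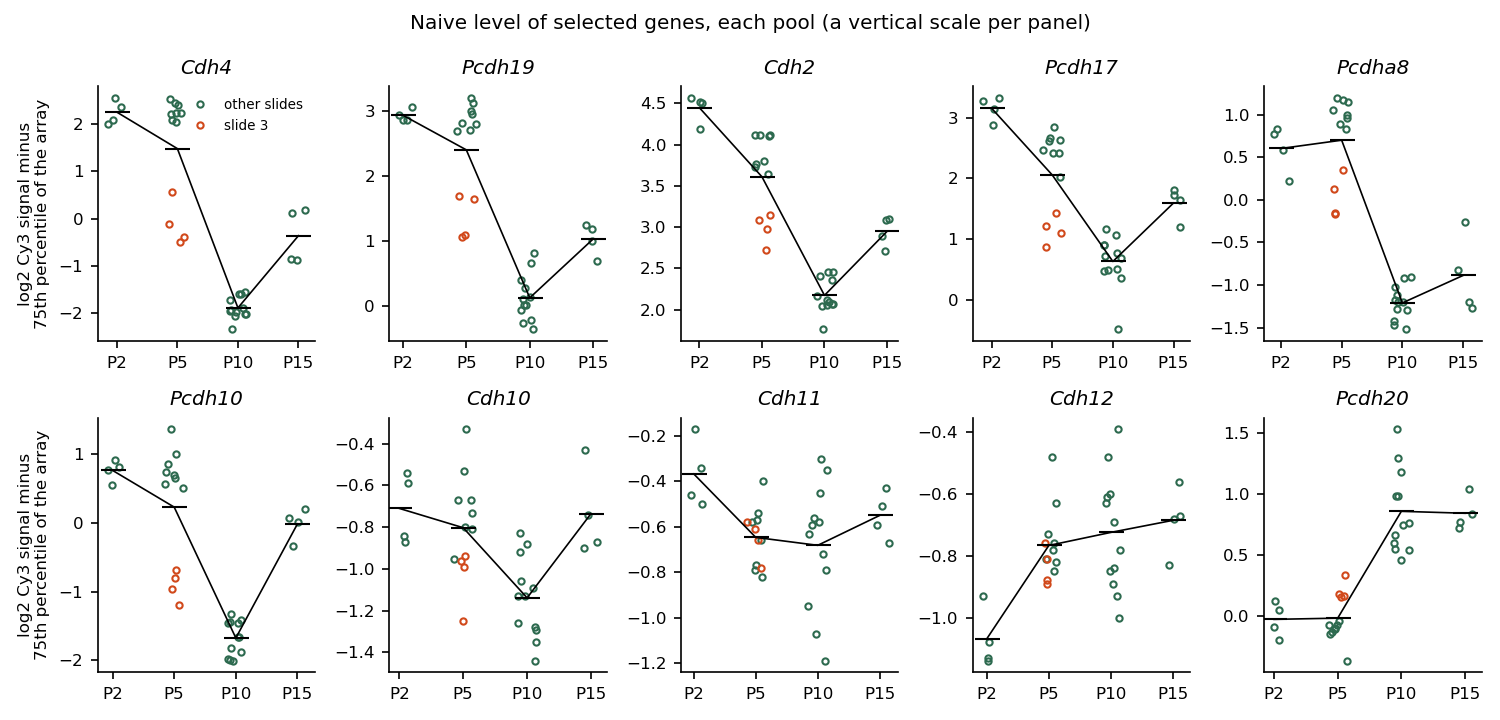
Naive level (vertical axis, log2 Cy3 signal minus the 75th percentile of the array, with a scale per panel) of 10 genes at P2, P5, P10 and P15, with 1 point per pool and black dashes for means. Pools of the third P5 slide are orange. Cdh4, Pcdh19, Cdh2, Pcdh17, Pcdha8 and Pcdh10 had lower means at P10 than at P5, and Cdh10, Cdh11 and Cdh12 had no called change.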

How the data were processed

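The authors deposited Agilent Feature Extraction 10.5.1.1 output of 32 two-colour mouse arrays. Per the file headers it holds background-subtracted, dye-normalized processed signal intensity per dye and their log10 ratio of Cy5 over Cy3; the value table deposited with the arrays equals these log10 ratios on HI arrays. Ratios were converted to log2, set missing where a spot was an outlier or neither dye was above background, and averaged over spots. Of 39429 probes, 27427 were named through RefSeq (GRCm38.p6 table) and 12002 kept the file's name. limma 3.58.1 (R 4.3.3) was fitted to 24 HI arrays with a coefficient for each of 8 groups, and to the Cy3 channels of 32 arrays for age. Probes needed a mean signal of 100 in a dye and at least 2 ratios. Benjamini-Hochberg adjustment ran over all probes tested, and a gene was called if 1 of its probes was. The methods' t-test was an alternative, as were other filters, normexp background, quantile scaling, blocks, a dye bias estimated from the naive dye swaps, and leaving out each array or slide. The fits were tested on simulated data. Named genes were those called on a probe that moved one way on all its arrays, those differing between ages, the genes the study names and the largest naive falls. Members, gene lists and tests were chosen with earlier results of these data known. Pools are the replicates. The study's methods name separate litters for the P2 and P15 pools, and this was not found stated for the others, so that p-values measure the spread between pools. The number of arrays limits precision. A slide that stood apart was found after seeing the data, and leaving it out was added then.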

Additional observations from a re-analysis of the deposited data

Results flagged for a closer look

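In 9 values of 6 genes the HI ratio differed between P10 and P5 by a test of the difference itself. Pcdha8 differed at 3 h by 0.78 (-0.01 at P5 and 0.77 at P10, limma adjusted p = 0.0378) and at 6 h by 0.87 (0.07 and 0.94, limma adjusted p = 0.00268). Pcdh19 differed at 6 h by 0.83 (0.03 and 0.86) and at 12 h by 0.67 (-0.12 and 0.55, limma adjusted p = 0.0477). Cdh13 differed at 6 h by 0.76 (0.03 and 0.78), Pcdhb21 by 0.72 (-0.15 and 0.57) and Pcdh20 by -0.77 (-0.54 and -1.30). Pcdhga9 differed at 6 h by 0.69 on one probe (0.03 and 0.73) and at 24 h by 0.93 on the other (-0.20 and 0.72, limma adjusted p = 0.0387). The 3 h value of Pcdha8 and the 12 h value of Pcdh19 were lost when any of many single arrays was left out, with limma adjusted p between 0.0501 and 0.129 and between 0.0501 and 0.204. The 24 h value of Pcdhga9 was lost without replicate 1 or 2 of either age (0.64 to 1.03). Without the third P5 slide these 3 values were 0.82 (Pcdha8, limma adjusted p = 0.124), 0.67 (Pcdh19, 0.0609) and 0.98 (Pcdhga9, 0.0742), none called. Age and slide cannot be told apart in these differences.

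In naive P2 brain 1 of 4 pools was marked as apart on each Cdh2 probe, where the others lay close together. On A_55_P2000133 it was at 4.11 and the others between 3.91 and 3.93, and on A_55_P2029711 it was at 4.19 and the others between 4.51 and 4.57. These were 2 of 62 groups of 4 pools examined, and chance marks about 1 group in 20.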

How the results depend on the processing

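The counts of genes repressed or induced at P5 and P10, of differences between ages and of naive changes kept within 1.5 times under the alternatives not named here. With the brightest probe alone, 0 genes were induced at P5. For P10 inductions, no filter gave 18 and the filter on well-above-background spots 17, which also gave 10 differences between ages. Normexp with loess gave 1 repressed at P5 and 6 at P10. The methods' t-test with 1.5-fold had 1 and 10 at P5 and 6 and 8 at P10 (induced and repressed), and 0 for all 4 counts after Benjamini-Hochberg. For naive P2 to P5, 2 changed with no filter and with the well-above-background filter, and 1 with the methods' test, both dyes or the replicate block. Quantile scaling gave 11 changes from P5 to P10 and 2 from P10 to P15, and the slide as a random block 10 and 2. Leaving out single arrays gave 1 to 1 induced and 7 to 11 repressed at P5, 5 to 7 and 11 to 17 at P10, 4 to 9 differing between ages, and 0 to 1, 17 to 22 and 6 to 9 naive changes in order of age. With the replicate block, 1 and 9 genes were called at P5, 6 and 13 at P10 and 8 differed between ages. Same-numbered arrays of an age shared a slide. Their ratios, less the group means, correlated from -0.45 to 0.59 (median 0.25, 27 of 36 pairs over 0.1). For differently numbered arrays of an age the median was -0.11 (12 of 72 pairs over 0.1). Some variation was thus shared within a number, which the main fit did not model. Quantile scaling moved the share of falls among all P5 to P10 changes from 39.3% to 49.8%.

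Of 45 called HI values, 30 were lost under normexp, 19 without 1 array and 6 with the dye bias subtracted, and none reversed. Of 49 called naive changes, 24 were lost under normexp with quantile scaling, 18 with the slide as a random block and 12 without 1 array. Of 9 differences between ages, 5 were lost under normexp and 7 without 1 array. The causes were not tested. Genes under the signal minimum, 23 of 68, were not tested.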
